A study of Citrus sinensis with 4 samples.

Results

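The genes described here are those with more RNA in the sweet orange cultivar Dahongtiancheng than in the cultivar Bingtangcheng at both of 2 fruit stages. They were chosen by measured levels. A level is the fragment count of a gene model scaled to a library total of 1000000 fragments (CPM), plus 0.5. A model was taken where the lower of its 2 Dahongtiancheng levels was at least 2 times the higher of its 2 Bingtangcheng levels, and where that lower Dahongtiancheng level was at least 1.5. Models with identifiers of the form Cs or orange1.1t could be taken, with Cs1g16150 left out, and 41 of these 28435 models met the rule, out of 29036 models in the files. The 41 genes are 0.285% of the 14397 models that could be taken and passed the level of 1.5. The same rule turned round, with Bingtangcheng higher, took 31 genes. Since the cultivar difference chose the genes, it is described here, and no test of it is used.

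Poly(A) RNA had been sequenced from endocarp, the inner fruit wall, of Dahongtiancheng at 70 and 50 days after full bloom and of Bingtangcheng at the same stages. All 4 libraries came from Citrus sinensis fruit with no treatment named. There was 1 library for each cultivar at each stage, so that no group had replicates. The sources used here do not say whether a library pooled several fruits or trees. In bulk tissue, fewer cells of a type and less RNA per cell cannot be told apart.

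In citrus, the juice sacs grow inward from the endocarp and fill the segments with large cells whose vacuoles store water, sugars and citric acid. Young fruit passes from cell division into cell enlargement, and acid builds up in the juice cells during that enlargement. Cultivars of sweet orange are close relatives of each other that arose largely by bud mutation, and Bingtangcheng is known for fruit of low acidity. The files pair no identifier with a gene name or function. None of the identifiers matched the NCBI gene table of the Valencia sweet orange assembly DVS_A1.0, so no role is given to any of the 41 genes. For the same reason the labelled tissue was not checked against marker genes.

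The libraries held 16192148 fragments for Dahongtiancheng at 70 days, 16253052 for Dahongtiancheng at 50 days, 16445383 for Bingtangcheng at 70 days and 14040916 for Bingtangcheng at 50 days. A single fragment was worth between 0.0608 and 0.0712 CPM. A count of 0 allows a level of up to 3 fragments, which is between 0.182 and 0.214 CPM. All intervals and limits given here cover counting error only, and fragments were not counted as separate molecules.

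Most of the 41 genes were weakly expressed. Their CPM in Dahongtiancheng ranged from 1.05 to 93.2 at 70 days, with a median of 7.16, and from 1.29 to 92.8 at 50 days, with a median of 5.05. In Bingtangcheng their CPM lay between 0 and 12.5 at 70 days (median 0.182) and between 0 and 7.76 at 50 days (median 0.641). On the mean of both Dahongtiancheng libraries, 17 of the 41 genes (41.5%) lay under 5 CPM, against 12.8% of all models that could be taken and passed the level of 1.5. The mean was over 50 CPM for 2 of them, Cs2g21750 and Cs4g02360. Together the 41 genes held 0.0474% of the fragments of Dahongtiancheng at 70 days (95% exact binomial interval 0.0463 to 0.0485) and 0.0373% at 50 days (0.0363 to 0.0382). In Bingtangcheng they held 0.00558% at 70 days (0.00522 to 0.00595) and 0.00466% at 50 days (0.00431 to 0.00504). The rule itself makes these shares differ between the cultivars, so the intervals show only how closely the counts fix each share. Much of each sum came from a few genes, since Cs2g21750 and Cs5g09970 gave 33.3% of the Dahongtiancheng fragments of the set at 70 days, and Cs4g02360 and Cs4g11160 gave 34.9% at 50 days.

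**Figure D1:**
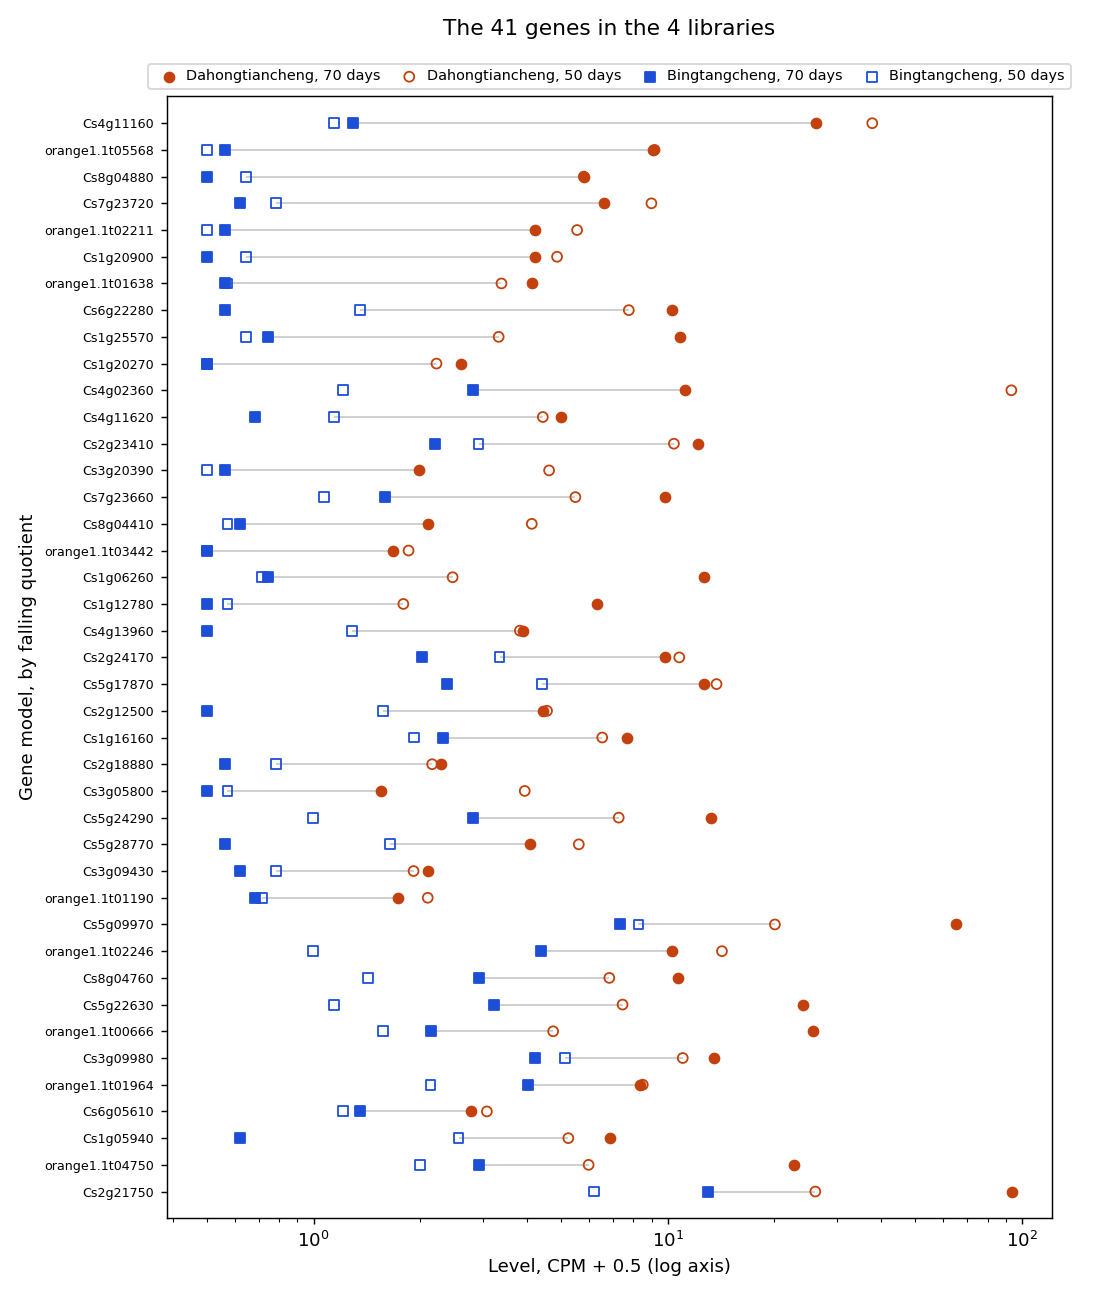
Level of each of the 41 genes (CPM + 0.5, log axis) in the 4 libraries, 1 point per library, with a grey line from the higher Bingtangcheng level to the lower Dahongtiancheng level. Genes are sorted by the quotient of these 2 levels, from 20.3 in Cs4g11160 at the top to 2.003 in Cs2g21750 at the bottom. Filled squares can hide open ones where both Bingtangcheng levels were equal.

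The genes spanned a range from near absence in Bingtangcheng to a difference just past the rule. The quotient of the lower Dahongtiancheng over the higher Bingtangcheng level had a median of 2.93, was at least 4 for 10 genes, from 3 to under 4 for 9 genes and from 2 to under 3 for 22 genes. In 17 genes both Bingtangcheng libraries were under 0.5 CPM. At least 1 Bingtangcheng library had no fragment in 11 genes, the 70-day library in 8 of them and the 50-day library in 5.

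The gene with the largest quotient was Cs4g11160 (chromosome 4, 7834000 to 7834689, minus strand). Its Dahongtiancheng counts were 417 fragments (70 days) and 606 fragments (50 days), against 13 and 9 in Bingtangcheng. Its CPM was 32.6-fold higher in Dahongtiancheng at 70 days (95% exact counting interval 18.8 to 61.7) and 58.2-fold higher at 50 days (30.4 to 128). It was also the sole gene among the 10 with the largest quotients that ranked among the 10 with the highest Dahongtiancheng levels. The next gene was orange1.1t05568 (unplaced sequence, 88064361 to 88064636, plus strand), a short model of 276 bases. Its counts were 139 and 141 in the 70-day and 50-day Dahongtiancheng libraries, and 1 and 0 in those of Bingtangcheng. Its level was therefore steady between stages in one cultivar and at the limit of detection in the other. Its ratio was 141 at 70 days, with a wide interval of 24.9 to 5616. At 50 days, against 0 Bingtangcheng fragments, the exact interval of the ratio started at 32.6 and had no upper end.

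A similar pattern with lower counts was seen in 6 of the other genes with quotients of 4 or more. These had at most 4 fragments in either Bingtangcheng library. Cs8g04880 (chromosome 8, 2673703 to 2678793, minus strand) had 86 fragments at each Dahongtiancheng stage, against 0 at 70 days and 2 at 50 days in Bingtangcheng. Cs7g23720 (chromosome 7, 22525704 to 22528216, minus strand) had 99 and 138 fragments in the 70-day and 50-day Dahongtiancheng libraries and 2 and 4 in those of Bingtangcheng. For orange1.1t02211 (unplaced sequence, 33793451 to 33795683, minus strand) the numbers were 60 and 82 in Dahongtiancheng, against 1 and 0 in Bingtangcheng, in the same order of stages. None of these genes reached 10 CPM in any library. Cs1g20900 (chromosome 1, 23872757 to 23873905, minus strand) had 60 and 71 fragments in Dahongtiancheng, against 0 and 2 in Bingtangcheng. In orange1.1t01638 (unplaced sequence, 27098155 to 27099033, plus strand) 59 and 47 Dahongtiancheng fragments stood against 1 and 1. Cs1g20270 (chromosome 1, 23369735 to 23370670, minus strand) had 34 and 28, against no fragment in either Bingtangcheng library. The groups of libraries did not overlap in any of the 41 genes, as the rule requires. With so few Bingtangcheng fragments the ratios have no close upper bound. For Cs1g20270 the CPM was at least 11.5-fold higher at 70 days and at least 8.06-fold higher at 50 days, against 3 fragments per Bingtangcheng library. The other gene without a Bingtangcheng fragment was orange1.1t03442 (unplaced sequence, 52884822 to 52890225, plus strand). It had 19 and 22 fragments in the 70-day and 50-day Dahongtiancheng libraries, and its exact intervals started at 4.74 and 4.73.

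In the remaining genes with quotients of 4 or more, counts differed more between stages. Cs6g22280 (chromosome 6, 21086026 to 21087111, plus strand) had 158 and 118 fragments at 70 and 50 days in Dahongtiancheng, against 1 and 12 in Bingtangcheng. Cs1g25570 (chromosome 1, 27875066 to 27876906, minus strand) had 167 and 46 in Dahongtiancheng, against 4 and 2. In Dahongtiancheng the first had 1.34 times the CPM at 70 days (95% exact counting interval 1.05 to 1.72), and it was near the limit of detection in the 70-day Bingtangcheng library, whereas the second had most of its fragments in the 70-day Dahongtiancheng library.

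The 10 genes with the highest mean Dahongtiancheng levels had, apart from Cs4g11160, quotients outside the top 10. Cs2g21750 (chromosome 2, 18852152 to 18854608, minus strand) had 93.2 and 25.6 CPM in Dahongtiancheng at 70 and 50 days, and 12.5 and 5.70 CPM in Bingtangcheng. Within a stage its CPM was 7.44-fold higher in Dahongtiancheng at 70 days (95% exact counting interval 6.43 to 8.65) and 4.49-fold higher at 50 days (3.53 to 5.78). Its quotient was the lowest, because its 50-day Dahongtiancheng level was set against its 70-day Bingtangcheng level. Cs4g02360 (chromosome 4, 1038805 to 1061658, plus strand) had 10.7 and 92.8 CPM in Dahongtiancheng at 70 and 50 days, against 2.31 and 0.712 CPM in Bingtangcheng. Its CPM was 4.62-fold higher in Dahongtiancheng at 70 days (3.24 to 6.75) and 130-fold higher at 50 days (70.7 to 272), so most of its fragments were in the 50-day Dahongtiancheng library. Cs5g09970 (chromosome 5, 6859316 to 6860936, minus strand) had 64.7 and 19.6 CPM in Dahongtiancheng at 70 and 50 days, against 6.81 and 7.76 CPM in Bingtangcheng. Its CPM was 9.50-fold higher at 70 days (7.81 to 11.7) and 2.52-fold higher at 50 days (2.02 to 3.16), and its high 70-day value in Dahongtiancheng had no counterpart in Bingtangcheng.

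The other genes among the 10 with the highest mean Dahongtiancheng levels ranged from 11.7 to 15.3 CPM on that mean, apart from Cs4g11160 with 31.5 CPM. They were Cs5g22630, orange1.1t00666, orange1.1t04750, Cs5g17870, Cs3g09980 and orange1.1t02246. Cs5g17870 (chromosome 5, 17959868 to 17965972, minus strand) and Cs3g09980 (chromosome 3, 14146505 to 14151930, plus strand) were steady between stages in Dahongtiancheng. Cs5g17870 had 12.2 and 13.2 CPM in Dahongtiancheng at 70 and 50 days and 1.89 and 3.92 CPM in Bingtangcheng. Cs3g09980 had 13.0 and 10.5 CPM in Dahongtiancheng, against 3.71 and 4.63 CPM.

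Counts scaled by library favour long transcripts, so levels of different genes were also compared per kilobase of gene model. On that scale the highest Dahongtiancheng values were those of Cs2g21750 at 70 days (110 CPM per kilobase) and of Cs4g02360 at 50 days (69.1 CPM per kilobase). The short model orange1.1t00666 (unplaced sequence, 7758332 to 7758793, plus strand) came second at 70 days with 54.7 CPM per kilobase. Cs4g11160 had 37.3 CPM per kilobase at 70 days and 54.0 at 50 days. The deposited FPKM gave another order, with orange1.1t05568 highest at 50 days (133, against 82.3 in Cs4g02360). At 70 days it came second by FPKM with 154, after Cs2g21750 with 219 and before orange1.1t00666 with 103. Most others were far lower, as orange1.1t03442 shows with 0.539 CPM per kilobase at 70 days and 0.622 at 50 days.

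Compared within each stage, the ratio of levels (CPM + 0.5) had a median of 7.19 over the 41 genes at 70 days and of 3.97 at 50 days. It ranged from 2.06 in Cs6g05610 to 20.3 in Cs4g11160 at 70 days, and from 2.04 in Cs1g05940 to 77.0 in Cs4g02360 at 50 days. In 25 genes the ratio was larger at 70 than at 50 days. It was at least 2 times larger at 70 days in 11 genes, among them Cs1g05940, Cs1g06260 and Cs1g12780, and at least 2 times larger at 50 days in 5 genes, which were Cs4g02360, orange1.1t02246, Cs3g20390, Cs3g05800 and Cs8g04410. The 95% exact counting intervals of the CPM ratios come from the counts that chose the genes, so they describe only how closely the counts fix a ratio. The interval reached to 2 or below at 1 or both stages in 6 genes, which were Cs3g09430, orange1.1t02246, Cs3g09980, orange1.1t01964, Cs6g05610 and Cs1g05940. Cs1g05940 (chromosome 1, 5774126 to 5775904, plus strand) had 103 and 77 fragments at 70 and 50 days in Dahongtiancheng, against 2 and 29 in Bingtangcheng. Its CPM was 52.3-fold higher at 70 days (14.1 to 438) and 2.29-fold higher at 50 days (1.48 to 3.65), so it was near the rule's edge at 50 days only. In Cs6g05610 (chromosome 6, 7091990 to 7093555, minus strand) the counts were 37 and 42 in Dahongtiancheng, against 14 and 10. In orange1.1t01964 (unplaced sequence, 31122923 to 31124005, minus strand) they were 127 and 130 in Dahongtiancheng, against 58 and 23. These last genes had similar counts at both stages in Dahongtiancheng.

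Further genes lay in the middle of the range of quotients. Cs2g23410 (chromosome 2, 21872757 to 21873660, minus strand) had 189 and 161 fragments in Dahongtiancheng at 70 and 50 days, against 28 and 34 in Bingtangcheng. Its neighbour in level, Cs2g24170 (chromosome 2, 22993020 to 22993912, plus strand), had 151 and 167 in Dahongtiancheng, against 25 and 40. Both differed by less than 2-fold between stages in each cultivar. Cs4g11620 (chromosome 4, 8450842 to 8454313, minus strand) had 73 and 64 in Dahongtiancheng, against 3 and 9 in Bingtangcheng. Cs8g04410 (chromosome 8, 2335758 to 2336840, plus strand) had 26 and 59, against 2 and 1. The lowest counts were those of Cs2g18880, Cs3g09430, orange1.1t01190 and orange1.1t03442, with under 30 fragments in every library.

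**Figure D2:**
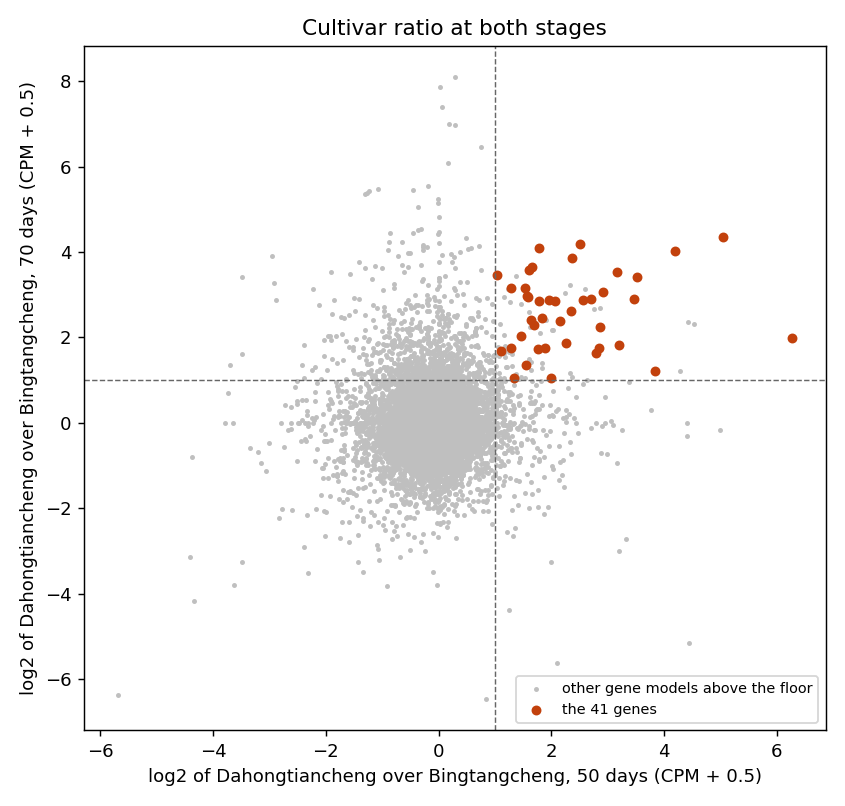
Log2 ratio of the Dahongtiancheng to the Bingtangcheng level (CPM + 0.5) at 50 days on the horizontal axis and at 70 days on the vertical axis, 1 point per gene model, with the 41 genes in colour and dashed lines at a 2-fold ratio. The colour marks how the genes were chosen, and grey points in the same corner are models that pass 2-fold within each stage and either not across stages or not the level of 1.5 in both Dahongtiancheng libraries.

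The thresholds lay within a continuous range of values. Just inside the fold were Cs2g21750 with a quotient of 2.003 and orange1.1t04750 and Cs1g05940 with 2.04 each. Just outside it were Cs9g18450 and Cs6g16370 with 1.97 each and Cs3g19350, also with 1.97, and 53 models above the level of 1.5 had quotients from 1.5 to under 2. By the level, Cs3g05800 with 1.55, orange1.1t03442 with 1.67 and orange1.1t01190 with 1.74 were just inside. Cs1g01240 with 1.43, Cs1g05240 with 1.30 and orange1.1t00047 with 1.24 were just outside, among 6 models that met the fold but not the level.

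The rule asks for a gap between the cultivars that holds across stages as well as within each. Compared within each stage, 88 models had at both stages a Dahongtiancheng level of at least 1.5 and at least 2 times the Bingtangcheng level. In 47 of these the gap across stages was under 2-fold. The 2 stages use different libraries, so genes chosen at 1 stage could be looked up at the other. Of the 986 models chosen at 70 days, 88 (8.92%) also had the higher Dahongtiancheng level by 2-fold at 50 days, while 85 (8.62%) had the higher Bingtangcheng level. Over all 14868 models above the level of 1.5 at 70 days these shares were 1.60% and 2.02%. Of the 319 models chosen at 50 days, 88 (27.6%) were higher in Dahongtiancheng at 70 days and 36 (11.3%) were higher in Bingtangcheng, against 4.96% and 4.12% of 15285 models. Both directions were thus more frequent among the chosen models than among all models. Whether the levels of single fruits vary enough to give such shares was not tested, since no group has a second library.

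Between the stages, 30 of the 41 genes stayed within 2-fold in Dahongtiancheng. The level at 70 days was at least 2 times that at 50 days in 8 genes of the 41, against 6.70% of 16230 models that reached a level of 1.5 in that cultivar, and it was lower by 2-fold or more in 3 genes, against 15.1%. In Bingtangcheng 19 of the 41 genes reached the level of 1.5, of which 6 were at least 2-fold higher at 70 days and 3 at least 2-fold lower, against 5.14% and 17.4% of 16214 models. With TMM library sizes, which centre most genes, the counts were 10 and 3 genes in Dahongtiancheng, against 9.01% and 11.9% of all models, and 7 and 2 genes in Bingtangcheng, against 7.57% and 12.5%. A gene with a large change in both cultivars meets the rule only if its lower Dahongtiancheng level is still at least 2 times its higher Bingtangcheng level. The 41 genes also had to reach 1.5 in both Dahongtiancheng libraries, while the models beside them, of any identifier form, reached it in at least 1 library of the cultivar. The counts of the 41 genes are therefore not those of an unselected set, and how the rule moves them was not tested. With library sums the median log2 ratio of 70 over 50 days was 0.08 for the 41 genes in Dahongtiancheng, against -0.20 for all models, and with TMM factors it was 0.24, against 0.00. In Bingtangcheng the median over the 41 genes was 0.00 with library sums, against -0.29 for all models, and 0.02 with TMM factors, against -0.01. For the 19 genes that reached the level of 1.5 there it was 0.45 with library sums. The other 22 genes were under that level in both Bingtangcheng libraries.

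The 8 genes with more RNA at 70 days in Dahongtiancheng were orange1.1t00666, Cs1g06260, orange1.1t04750, Cs2g21750, Cs1g12780, Cs5g09970, Cs1g25570 and Cs5g22630. In orange1.1t00666 the 70-day and 50-day values were 25.3 and 4.25 CPM in Dahongtiancheng, a stage ratio of 5.95 (95% exact counting interval 4.60 to 7.79). In Bingtangcheng they were 1.64 and 1.07 CPM, and the interval of the ratio (0.789 to 3.11) held 1. Cs1g06260 (chromosome 1, 6254150 to 6256990, minus strand) had 197 and 32 fragments in Dahongtiancheng, while Bingtangcheng had 4 and 3. Cs1g12780 (chromosome 1, 15857105 to 15859549, plus strand) had 94 and 21 in Dahongtiancheng, and 0 and 1 in Bingtangcheng. In Cs1g06260 and Cs1g12780 the Bingtangcheng counts were too few to show whether the level differed between stages there. The 3 genes with less RNA at 70 days in Dahongtiancheng were Cs4g02360, Cs3g05800 and Cs3g20390. Cs3g05800 (chromosome 3, 7625623 to 7626240, minus strand) had 17 and 56 fragments in Dahongtiancheng at 70 and 50 days, and 0 and 1 in Bingtangcheng.

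**Figure D3:**
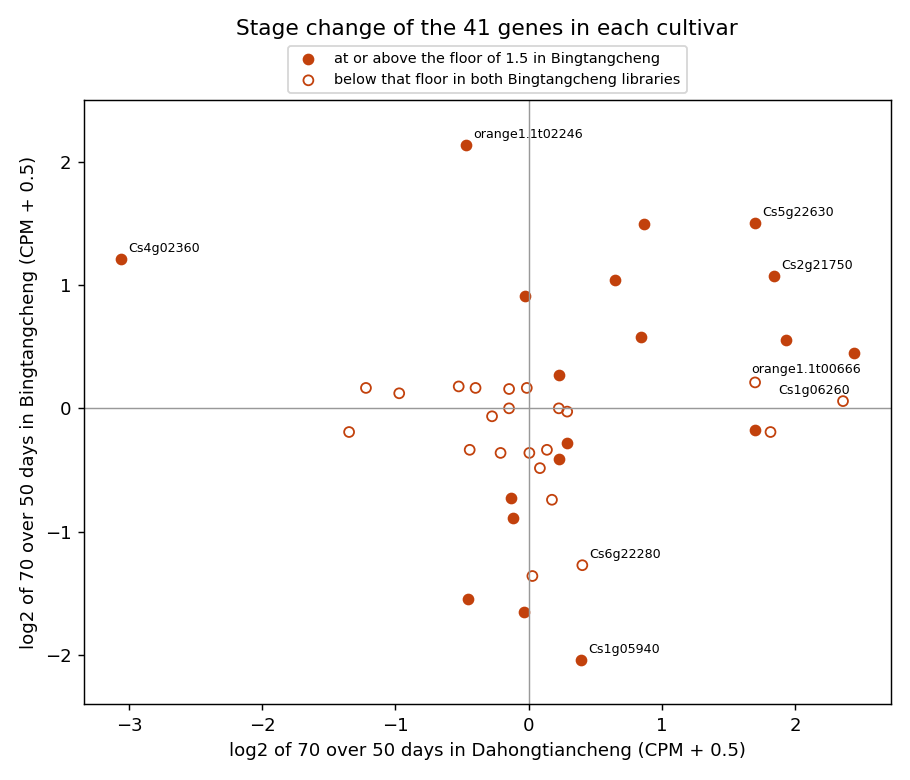
Log2 ratio of the level (CPM + 0.5, library sums) at 70 over 50 days in Dahongtiancheng (horizontal) and in Bingtangcheng (vertical) for the 41 genes, 1 point per gene. Filled points reached a level of 1.5 in at least 1 Bingtangcheng library (19 genes), and open points did not. Cs5g22630 and Cs2g21750 were higher at 70 days in both cultivars, and Cs4g02360 lies on opposite sides of 0 in the 2 cultivars.

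The stage difference was also tested in an additive model of stage and cultivar over the 4 libraries. It uses the cultivars in place of replicates and leaves 1 residual degree of freedom. The quasi-likelihood test of edgeR, adjusted over 16709 models, called 2 of the 41 genes higher at 70 days, against 3.09% of all models, and 0 lower, against 4.71%. At an unadjusted p under 0.05 in the edgeR fit, 9 of the 41 genes were higher and 0 lower, against 11.4% and 13.4% of all models. By DESeq2, which gave an adjusted p for 40 of the 41 genes, 3 were called higher, against 5.38% of 16385 models, and 0 lower, against 6.44%. After adjustment, the counts of genes called higher by either tool were near the shares over all models. Without adjustment, the share of the 41 genes that was higher exceeded that over all models, and the share that was lower fell short of it. In the edgeR fit the genes that rose were Cs2g21750, with a log2 change of 1.77 (edgeR adjusted p = 0.0206), and Cs5g22630, with 2.12 (edgeR adjusted p = 0.0277). Cs5g22630 (chromosome 5, 25303110 to 25306904, plus strand) had 23.7 and 6.95 CPM at 70 and 50 days in Dahongtiancheng, and 2.74 and 0.641 CPM in Bingtangcheng, so its level was higher at 70 days in both. Both genes met the rule with library sums and not with TMM library sizes, as did orange1.1t00666, orange1.1t04750 and orange1.1t01964, so that 0 of the 36 genes that met it under both scalings were called by edgeR. The next in order were orange1.1t04750 (log2 change 1.67, edgeR adjusted p = 0.0862), orange1.1t00666 (1.98, edgeR adjusted p = 0.100) and Cs5g24290 (1.66, edgeR adjusted p = 0.114). Among genes with negative log2 changes the smallest edgeR adjusted p was 0.356, in Cs3g05800 (-1.64), followed by Cs5g28770, Cs2g12500, Cs4g02360 and Cs4g13960 with values between 0.408 and 0.634.

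Counting intervals with library sums say nothing of the spread between fruits. By these alone, the stage ratio lay beyond 1 in the same direction in both cultivars in 5 genes. It was above 1, with more RNA at 70 days, in Cs5g24290, Cs8g04760, Cs5g22630 and Cs2g21750, and below 1 in Cs5g28770. With TMM factors, which raise the stage ratios in both cultivars, the Dahongtiancheng interval of Cs5g28770 (0.493 to 0.993 with library sums) would hold 1. Cs8g04760 (chromosome 8, 2598824 to 2600755, minus strand) had 10.2 and 6.34 CPM at 70 and 50 days in Dahongtiancheng and 2.43 and 0.926 CPM in Bingtangcheng. Cs5g24290 (chromosome 5, 27172280 to 27174136, minus strand) had 12.7 and 6.77 CPM at 70 and 50 days in Dahongtiancheng and 2.31 and 0.499 CPM in Bingtangcheng. Cs5g28770 (chromosome 5, 30996966 to 31000349, minus strand) had 58 and 83 fragments in Dahongtiancheng and 1 and 16 in Bingtangcheng. In 3 further genes, Cs6g22280, Cs4g02360 and orange1.1t02246, the directions were opposite with library sums. The Dahongtiancheng interval of orange1.1t02246 (0.576 to 0.876) would also hold 1 with TMM factors. In orange1.1t02246 (unplaced sequence, 34126518 to 34129899, minus strand) the 70-day and 50-day values were 9.76 and 13.7 CPM in Dahongtiancheng, against 3.89 and 0.499 CPM in Bingtangcheng. A low 70-day count in Bingtangcheng also set Cs2g12500 and Cs4g13960 apart. Cs2g12500 (chromosome 2, 9383601 to 9384437, minus strand) had 64 and 66 fragments in Dahongtiancheng and 0 and 15 in Bingtangcheng. Cs4g13960 (chromosome 4, 11452056 to 11461273, minus strand) had 55 and 54 in Dahongtiancheng, against 0 and 11. Both were level between stages in Dahongtiancheng.

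The 41 genes were spread over the genome. Chromosome 1 held 7, chromosomes 2 and 5 held 5 each, chromosomes 3 and 4 held 4 each, chromosome 8 held 3, chromosomes 6 and 7 held 2 each, and chromosome 9 held none of its 884 models above the level of 1.5. Another 9 genes (22.0%) lay on sequence not placed on a chromosome, against 13.5% of all models above that level. The order of models on the unplaced sequence need not be their order in the genome. Of the 41 genes 16 (39.0%) were on the plus strand, against 50.6%, and the median model length was 1504 bases, against 1680 bases. Positions are those of the files, whose genome build the sources used here do not name.

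Few of the genes lay close together. Within 50 kb of each other were only Cs7g23660 and Cs7g23720 on chromosome 7. Cs7g23660 (22474596 to 22478542, minus strand) had 151 and 81 fragments at 70 and 50 days in Dahongtiancheng, against 18 and 8 in Bingtangcheng. Between them lay Citrus_newGene_1471 (22512597 to 22515373, plus strand), a model of a form the rule does not take, with 83 and 69 fragments in Dahongtiancheng and none in Bingtangcheng. Models beside and between them, such as Cs7g23650 and Cs7g23670, differed by less than 2-fold between the cultivars at both stages. On chromosome 8, Cs8g04410, Cs8g04760 and Cs8g04880 lay between positions 2335758 and 2678793.

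The nearest model on each side with a mean of at least 1 CPM over the 4 libraries was read for every gene, a description added after the values were seen. Of these 82 flanking models 71 were within 2-fold between the cultivars at both stages, against 87.2% of all such models outside the 41, and the median log2 ratio of the flanking models was 0.02 at 70 days and 0.00 at 50 days. On the numbered chromosomes alone, 54 of 64 flanking models were within 2-fold. A difference of 2-fold or more in favour of Dahongtiancheng at both stages was found in 2 flanking models, Citrus_newGene_1471 and Cs1g16150, against 0.438% of all such models. A 2-fold difference at 1 stage only was found in 8 others. The remaining 1, Cs1g06240, lies 43063 bases before Cs1g06260 and had 844 and 144 fragments at 70 and 50 days in Dahongtiancheng, against 148 and 427 in Bingtangcheng. Its ratio of levels was 5.54 at 70 days and 0.303 at 50 days, so it went in opposite directions at the stages. Beside Cs8g04880, Cs8g04870, which ends 348 bases before it on the other strand, had ratios of 1.21 at 70 days and 1.19 at 50 days.

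**Figure D4:**
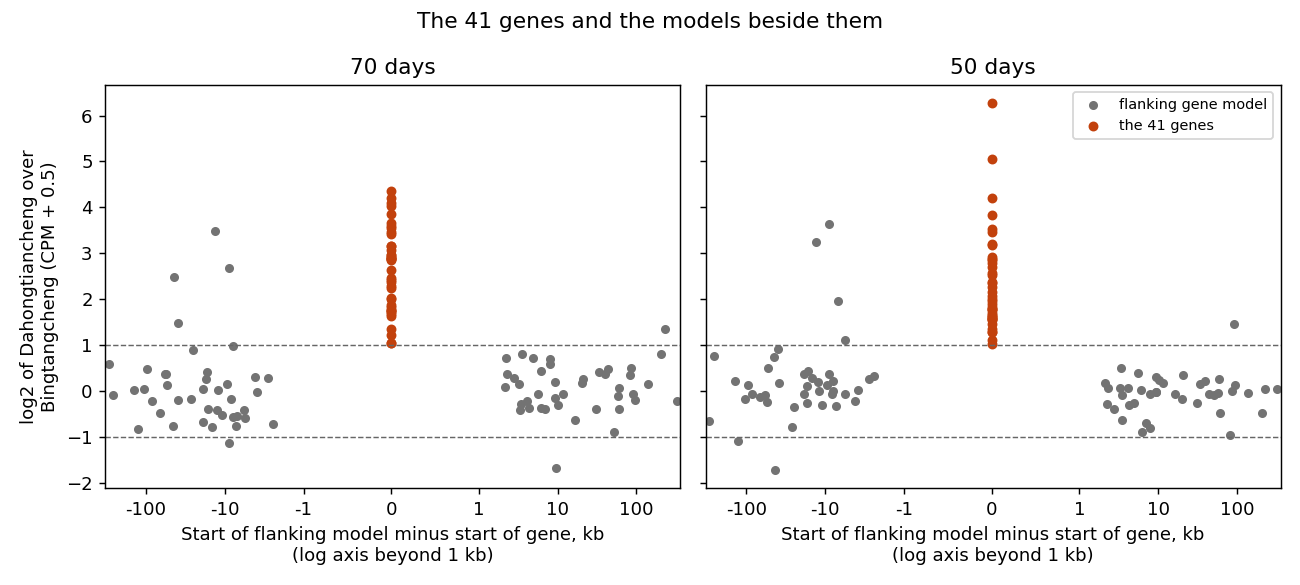
Log2 ratio of the Dahongtiancheng to the Bingtangcheng level (CPM + 0.5) at 70 days (left) and 50 days (right) for the 41 genes, drawn at 0, and for the nearest expressed model on each side, by the distance between model starts in kilobases (log axis beyond 1 kilobase). Dashed lines mark 2-fold in either direction, and 71 of the 82 flanking models lie between them at both stages.

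The exception on chromosome 1 was Cs1g16160 (19255152 to 19260613, plus strand). It had 7.16 and 6.03 CPM at 70 and 50 days in Dahongtiancheng, against 1.82 and 1.42 CPM in Bingtangcheng, a 3.93-fold difference at 70 days (95% exact counting interval 2.61 to 6.08) and a 4.23-fold difference at 50 days (2.60 to 7.23). It starts 893 bases after the end of Cs1g16150 on the same strand. Cs1g16150 had 1538 and 228 CPM in Dahongtiancheng, against 240.5 and 17.8 CPM in Bingtangcheng, so it was far more abundant and its level was over 6 times higher at 70 days in Dahongtiancheng, whereas that of Cs1g16160 was within 2-fold. The rule names Cs1g16150 as left out, and its numbers would not have met it, since its 70-day Bingtangcheng level exceeded its 50-day Dahongtiancheng level. Whether reads that run past the end of Cs1g16150 were counted in Cs1g16160 was not tested. Cs1g16170, which lies 763 bases beyond Cs1g16160 on the minus strand, had 559 and 377 fragments in Dahongtiancheng, against 740 and 610. In the same region Citrus_newGene_38 had 112 and 168 fragments in Dahongtiancheng, against 22 and 20, at a distance of 40297 bases from Cs1g16160. In all, 15 of the 600 Citrus_newGene models met the numbers of the rule, 4.29% of the 350 above the level of 1.5, and 2 of them lay within 50 kb of 1 of the 41 genes.

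In 3 of the 41 genes the model overlaps another that had over 20 fragments, and the sources used here do not say whether the counting used strand. Cs3g20390 (chromosome 3, 23426356 to 23428914, plus strand) lies inside Cs3g20380 on the minus strand. It had 24 and 67 fragments in Dahongtiancheng at 70 and 50 days, against 1 and 0 in Bingtangcheng, while Cs3g20380 had 417 and 426 in Dahongtiancheng and 417 and 372 in Bingtangcheng. Cs4g02360 overlaps Cs4g02400 on the minus strand, which had 611 and 500 fragments in Dahongtiancheng and 480 and 411 in Bingtangcheng. Cs3g09430 lies within Cs3g09330 on the same strand, which had 403 and 248 fragments in Dahongtiancheng, against 222 and 157. The partners of Cs3g20390 and Cs4g02360 were near equal in the cultivars, with ratios of levels between 0.989 and 1.29, while that of Cs3g09330 was 1.81 at 70 days and 1.35 at 50 days. Reads of near-identical gene copies cannot be told apart with certainty in any of the 41 genes.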

How the data were processed

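Fragment counts per gene model, raw per the file headers, were taken from 4 libraries of endocarp. The deposited FPKM values served as an alternative, and the deposited scaled signal (a normalized count) was checked and not used. The sources used here do not give the aligner, counter, genome build, annotation or strandedness, or how FPKM was computed. Per the labels' protocols, poly(A) RNA was selected after Trizol extraction. A header line recurring 1 time in each file was dropped, and 0 of the 29036 identifiers matched the 29331 reference genes, so gene lists defined by description could not be filled. Model length per the file headers, in bases, is the deposited value used for levels per kilobase.

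The genes and the lists were chosen with earlier results of these data known. Named genes are the 10 with the largest quotients, the 10 with the highest Dahongtiancheng levels, the 5 in each direction with the smallest stage p, those nearest the thresholds and those without Bingtangcheng fragments, with others given as examples after their values were seen. Intervals are exact (Clopper-Pearson, 95%, scipy 1.17.1). The stage fit used edgeR 4.0.16 in R 4.3.3, with TMM and the quasi-likelihood test. It took models reaching both 10 fragments and 1 CPM in some library. Adjustment was Benjamini-Hochberg over 16709 models, and the common dispersion was 0.0771. The fit was also run on simulated counts, which held no difference between the cultivars. That run therefore cannot show how the fit behaves on these libraries. DESeq2 1.42.0, other scalings, offsets, folds and floors were alternatives. The p-values of both tools rest on how far the stage change differed between the cultivars, since no group has a second library. They do not measure a spread between fruits within a group.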

Additional observations from a re-analysis of the deposited data

Results flagged for a closer look

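With library sums, the stage ratio went in opposite directions in the cultivars in 3 of the 41 genes, with counting intervals that excluded 1 in each. With TMM factors the Dahongtiancheng interval of orange1.1t02246 (0.576 to 0.876 with library sums) would hold 1. The difference between the cultivars was not tested, since each combination has 1 library. In Cs4g02360 the level (CPM + 0.5) at 70 days was 0.120 times that at 50 days in Dahongtiancheng and 2.32 times that at 50 days in Bingtangcheng, a difference of -4.27 on the log2 scale. In orange1.1t02246, with 158 and 223 fragments at 70 and 50 days in Dahongtiancheng and 64 and 7 in Bingtangcheng, the difference was -2.61. In Cs6g22280 it was 1.67, and rested on 1 and 12 fragments at 70 and 50 days in Bingtangcheng.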

How the results depend on the processing

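The number of genes that met the rule was 41 with TMM and with RLE library sizes, of which 36 were the same genes in each case, and 43, 32 and 47 with an offset of 0.25, an offset of 1 and no floor. It was 19 at a fold of 3, 10 at a fold of 4, 21 with a floor of 5, 69 with the deposited FPKM (30 of the 41 among them), 986 from the 70-day pair alone and 319 from the 50-day pair alone. The cause of the difference with FPKM was not tested. At a fold of 4 between stages, 2 genes were higher at 70 days in Dahongtiancheng and 1 in Bingtangcheng, and 1 was lower in each cultivar. Genes in groups numbered 0 within 20 kb or as adjacent models, 4 within 100 kb and 9 within 500 kb, the last chosen after seeing the data. With a flanking floor of 5 CPM, 1 of 81 flanking models was 2-fold higher in Dahongtiancheng at both stages. The stage calls of Cs2g21750 and Cs5g22630 were made under all 4 alternatives, and DESeq2 added orange1.1t00666. Of 205 recomputed quotients, 195 stayed within counting error and 0 fell below 1. They come from the same libraries that chose the genes, so they show only what the settings change. A quotient within counting error could still fail the rule, as that of Cs2g21750 did with 1.71 under TMM library sizes. No paired analysis was possible because each group has 1 library, and no library could be left out for the same reason. Ratios against 0 Bingtangcheng fragments have no upper bound, and those against 1 or 2 fragments have wide intervals.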
